A study of Mus musculus with 6 samples.

Results

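The expression of 3 transmembrane signalling adaptors, Tyrobp (DAP12), Hcst (DAP10) and Fcer1g (the common Fc receptor gamma chain), was examined in activated CD8+ T cells together with the Fc receptors Fcgr3 and Fcgr2b and the kinase Syk. These 6 of the 16281 genes in the count table were selected by symbol, on the comparison of GSK with Veh described below and with its results known. The differences of the 6 genes between GSK and Veh are therefore given as a description, without a test.

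Tyrobp and Fcer1g carry immunoreceptor tyrosine-based activation motifs (ITAMs), which Src family kinases phosphorylate and to which Syk or Zap70 then binds. Hcst carries a different motif, which recruits phosphatidylinositol 3-kinase and Grb2. Such adaptors give signalling capacity to receptors with short cytoplasmic tails on natural killer (NK) and myeloid cells, while conventional T cells rely mainly on the CD3 and zeta chains and Zap70, and use Hcst with the receptor NKG2D.

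CD8+ T cells came from the spleens of OT1 mice, which carry the T-cell receptor transgene Tg(TcraTcrb)1100Mjb specific for an ovalbumin peptide on a C57BL/6 background. In both groups the cells were activated with anti-CD3 (2 μg/ml) and anti-CD28 together with IL-2 (20 ng/mL) for 48 h, and then expanded in IL-2 for 3 days. GSK cultures received GSK2879552, an irreversible inhibitor of the histone demethylase LSD1, at 0.5 μM throughout, and Veh cultures received the vehicle. RNA was sequenced from 3 cultures per group. The study describes cells from 3 separate OT1 mice and gives 3 mice per group. It does not say whether the groups share mice. The age of the OT1 mice is not given in the sources used here. All cells carried 1 transgenic receptor and were expanded in vitro, which limits them as a model of a natural CD8+ T-cell population.

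The deposited counts summed to between 18288447 and 18918811 in the Veh libraries and to between 19149909 and 19846720 in the GSK libraries. Levels are given as CPM, the counts per 1000000 reads of the TMM-scaled library total. Of the 7 CD8+ T-cell markers in the table, which included Cd3e and Cd8a, the summed level was 3470 to 3550 (Veh) and 3510 to 3630 CPM (GSK). Across the 11698 genes that passed the filter on low counts, edgeR's quasi-likelihood test called 260 genes (2.22%) higher and 479 (4.09%) lower in GSK with a fold change beyond 1.5 and an adjusted p below 0.05. Without the fold limit, 1941 genes (16.6%) were higher and 1819 (15.5%) lower. The 3 GSK libraries lay entirely above or entirely below the 3 Veh libraries in 5464 of the tested genes (46.7%).

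Hcst was by far the most strongly expressed of the 6 genes. Their counts came to 2665 reads over the 6 libraries, of which 1841 belonged to Hcst, 330 to Syk, 300 to Fcer1g, 88 to Fcgr3, 69 to Tyrobp and 37 to Fcgr2b. Fcgr2b did not pass the filter on low counts. Tyrobp reached 10 counts in 3 GSK libraries but only 1 Veh library, and Fcgr3 in 3 Veh libraries but only 1 GSK library. Each of them passed the filter only through the group in which it was higher, so the filter favoured a difference between the groups. Among the 5 genes that passed, 1 (Tyrobp) was called higher and 1 (Fcgr3) lower, beside the backgrounds of 2.22% and 4.09%, and these were also the 2 with groups that did not overlap, beside 46.7%. Nothing is read from these counts, since the genes were chosen on this contrast.

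Tyrobp lies on chromosome 7 of GRCm38, on the plus strand (chr7:30413782-30417582), and overlaps no other annotated gene. It was counted with 5, 11 and 2 reads in Veh replicates 1, 2 and 3, and with 17, 21 and 13 reads in the GSK replicates. In CPM these were 0.272, 0.59 and 0.105 in Veh and 0.892, 1.06 and 0.678 in GSK. All GSK libraries were above all Veh libraries, and Veh replicate 2 came closest to the GSK range. The mean was 0.322 ± 0.246 CPM for Veh and 0.878 ± 0.193 CPM in GSK (SD, n = 3), with a fitted log2 fold change of 1.43 ± 0.511 (SE). The summed counts, 18 in Veh and 51 in GSK, gave a ratio of scaled levels of 2.74, with a 95% interval from 1.57 to 4.98 that covers counting error only. With 1 library left out at a time the log2 fold change ranged from 1.01, without Veh replicate 3, to 2.19, without Veh replicate 2, and Tyrobp was called in 3 of the 11 alternatives in which it was tested. Its mean level was low in both groups, with only 1.6% of the tested genes lower.

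Hcst lies next to Tyrobp on the opposite strand (chr7:30417712-30419854), with 129 bases between the ends of the annotated genes, and the transcripts of the 2 adaptors shared no stretch of 31 bases. Its counts were 373, 294 and 293 in Veh and 252, 327 and 302 in GSK. As CPM, Veh replicates 1 to 3 measured 20.3, 15.8 and 15.4, and the GSK replicates 13.2, 16.5 and 15.7. The groups overlapped, with the highest library in Veh and the lowest in GSK. Mean levels were 17.2 ± 2.72 (Veh) and 15.2 ± 1.73 CPM (GSK; SD, n = 3), and the log2 fold change was -0.18 ± 0.123 (SE). It ranged from -0.25 to -0.04 with 1 library left out, the value nearest 0 being without Veh replicate 1. The ratio of scaled summed counts was 0.887, with a counting interval from 0.809 to 0.973 that leaves out the spread between libraries. Of the tested genes, 33.3% had a lower mean CPM than Hcst.

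Fcer1g, the gamma chain that pairs with activating Fc receptors, is on the minus strand of chromosome 1 (chr1:171229572-171234349). Its counts were 28, 59 and 67 in Veh and 52, 42 and 52 in GSK, or 1.52, 3.16 and 3.52 CPM and 2.73, 2.13 and 2.71 CPM. The 3 GSK values lay within the range of the Veh values, in which replicate 1 was the lowest. Means were 2.74 ± 1.07 (Veh) and 2.52 ± 0.344 CPM (GSK; SD, n = 3). The log2 fold change was -0.12 ± 0.291 (SE), and its sign depended on single Veh libraries, with -0.41 without Veh replicate 1 and 0.10 without Veh replicate 3. The ratio of scaled summed counts was 0.916, with an interval from 0.726 to 1.16 for counting error alone.

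**Figure D1:**
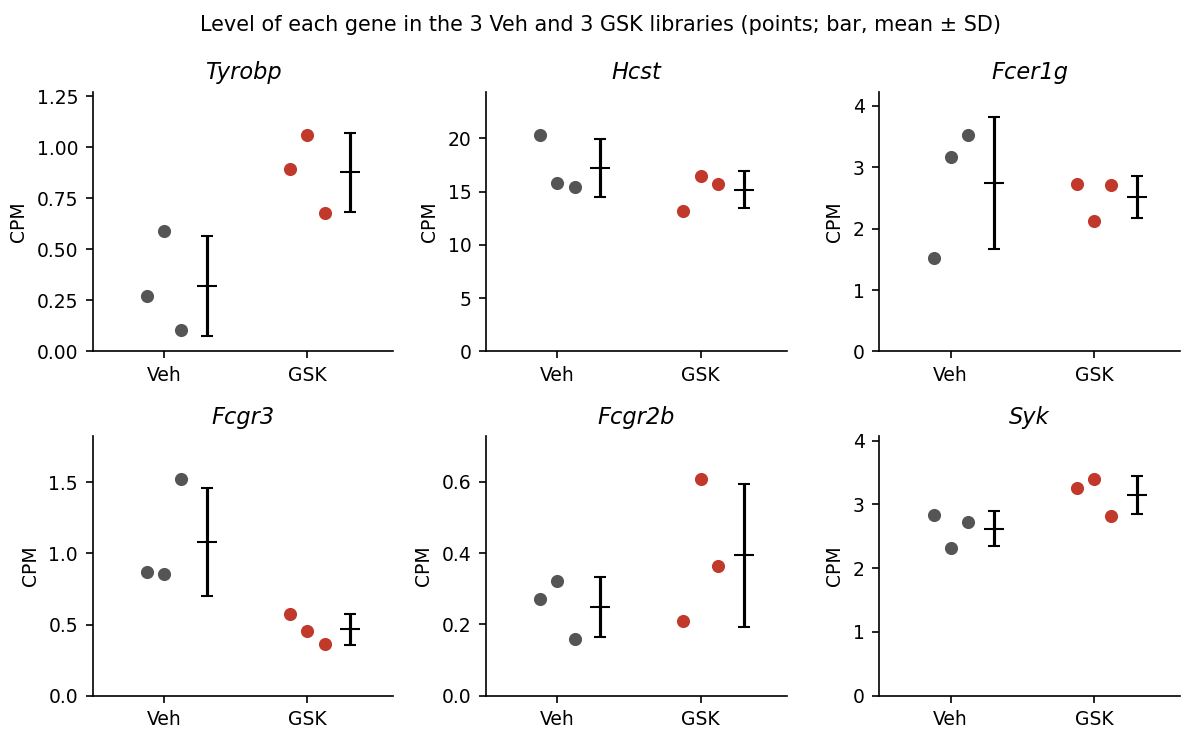
CPM (y axis, from 0, a different scale in each panel) of Tyrobp, Hcst, Fcer1g, Fcgr3, Fcgr2b and Syk in the Veh (grey) and GSK (red) libraries, ordered as replicates 1 to 3 within each group; black bars give the mean ± SD of 3 libraries. The groups are apart for Tyrobp (0.105 to 0.59 against 0.678 to 1.06 CPM) and Fcgr3 (0.858 to 1.52 against 0.365 to 0.577 CPM) and overlap for the other 4 genes.

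Both Fc receptors bind IgG, with opposite roles: Fcgr3 signals through the gamma chain, and Fcgr2b is the inhibitory receptor with an ITIM in its own tail. Their genes lie on the minus strand of chromosome 1 (Fcgr3 at chr1:171051169-171065915, Fcgr2b at chr1:170960558-170976071), 75097 bases apart and in the same cluster as Fcer1g. Their transcripts are closely related, and 233 of the 1627 31-base stretches of Fcgr3 (14.3%) and of the 3632 stretches of Fcgr2b (6.42%) were identical between them, so a read that lies wholly within shared sequence cannot be assigned to 1 gene. The share of such reads was not measured. The study sequenced paired-end reads that were longer than the longest identical run, so an untrimmed read extends beyond it. This run has 129 bases. It is coding sequence, taken from the reference transcripts Fcgr3-201 and Fcgr2b-201 (GENCODE M21, GRCm38) and written 5′ to 3′ along the transcripts, in lower case throughout.
shared run of Fcgr3-201 and Fcgr2b-201: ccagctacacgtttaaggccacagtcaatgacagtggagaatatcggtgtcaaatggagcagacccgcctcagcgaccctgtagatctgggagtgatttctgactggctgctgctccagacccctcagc
On the genome the run covers 102 bases of exon 3 and 27 bases of exon 4 of both transcripts. These lie at chr1:171057691-171057792 and chr1:171054167-171054193 in Fcgr3, and at chr1:170967980-170968081 and chr1:170966674-170966700 in Fcgr2b, all on the minus strand. Fcgr3 also overlaps 3 annotated tRNA genes and the microRNA gene Mir6546, none of which is in the count table.

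Fcgr3 was counted with 16, 16 and 29 reads in Veh and 11, 9 and 7 reads in GSK. The levels were 0.87, 0.858 and 1.52 CPM in Veh and 0.577, 0.455 and 0.365 CPM in GSK. All GSK libraries were below all Veh libraries, the highest value being in Veh replicate 3. The mean was 1.08 ± 0.381 (Veh) and 0.466 ± 0.107 CPM (GSK; SD, n = 3), with a log2 fold change of -1.21 ± 0.404 (SE), and the summed counts of 61 and 27 gave a ratio of 0.428 with a counting interval from 0.261 to 0.684. The log2 fold change ranged from -1.39 to -0.88 over the libraries left out, with -0.88 without Veh replicate 3, and Fcgr3 was called in 4 of 11 alternatives.

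Fcgr2b was counted with 5, 6 and 3 reads in Veh and 4, 12 and 7 reads in GSK. This corresponded to 0.272, 0.322 and 0.158 CPM and to 0.21, 0.607 and 0.365 CPM. The groups overlapped, with the highest value in GSK replicate 2. The summed counts of 14 and 23 gave a GSK-to-Veh ratio of 1.59 with a counting interval from 0.783 to 3.34. In total 37 reads were counted for the inhibitory receptor and 88 for the activating one, and Fcgr4, another IgG receptor that pairs with the gamma chain, had 2, 4 and 2 reads in Veh and 7, 9 and 7 in GSK and was not tested.

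Syk (chr13:52582610-52648792, plus strand) is the tandem SH2 kinase that ITAM adaptors recruit in B cells and myeloid cells, and T cells use its relative Zap70. Syk counts were 52, 43 and 52 in Veh and 62, 67 and 54 in GSK, or 2.83, 2.31 and 2.73 CPM and 3.25, 3.39 and 2.82 CPM. The groups overlapped narrowly, since GSK replicate 3 lay just below Veh replicate 1. Mean levels were 2.62 ± 0.278 (Veh) and 3.15 ± 0.301 CPM (GSK; SD, n = 3), with a log2 fold change of 0.27 ± 0.21 (SE) that stayed between 0.18 and 0.34 with 1 library left out. Its ratio of scaled summed counts was 1.2, with a counting interval from 0.963 to 1.51.

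**Figure D2:**
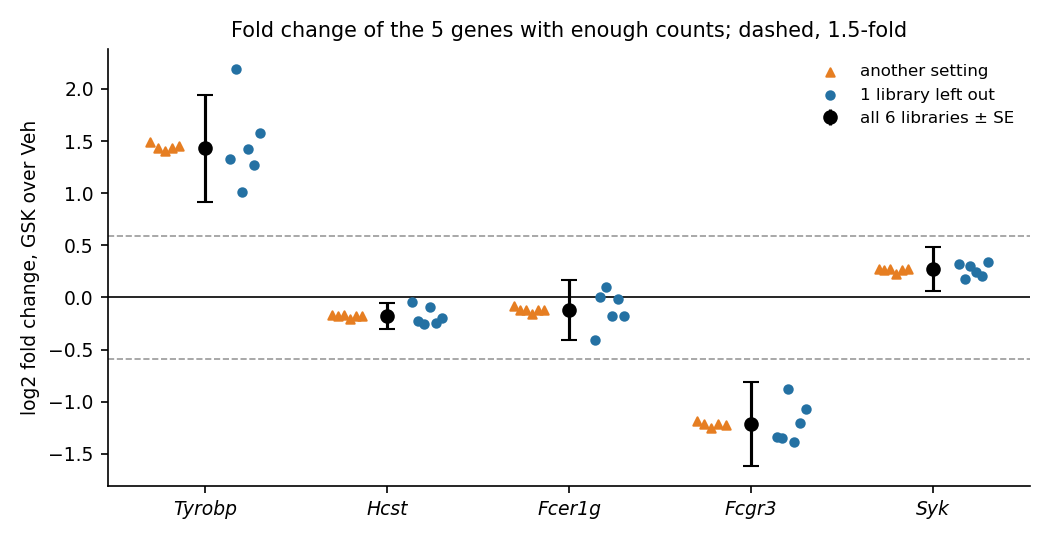
Fitted log2 fold change of GSK over Veh (y axis) for the 5 genes that passed the filter: black points with SE bars for all 6 libraries, blue points with 1 library left out, orange triangles for other scalings, filters, tests and the replicate block. Tyrobp (1.43) and Fcgr3 (-1.21) lie beyond the dashed 1.5-fold lines, Hcst and Syk each stay on one side of 0, and Fcer1g crosses 0.

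Levels were next compared between genes per kilobase of annotated exon. In Veh the order was Hcst at 23.8 ± 3.77, Fcer1g at 3.13 ± 1.22, Fcgr3 at 0.625 ± 0.219, Tyrobp at 0.483 ± 0.369, Syk at 0.28 ± 0.0297 and Fcgr2b at 0.0433 ± 0.0145 CPM per kb (SD, n = 3). In GSK the order was Hcst at 21.0 ± 2.4, Fcer1g at 2.89 ± 0.393, Tyrobp at 1.32 ± 0.289, Syk at 0.337 ± 0.0321, Fcgr3 at 0.268 ± 0.0614 and Fcgr2b at 0.0681 ± 0.0346 CPM per kb. In Veh the neighbours Fcgr3 and Tyrobp overlapped in range, as did Tyrobp and Syk, and in GSK Syk and Fcgr3 overlapped. Hcst exceeded each of the other genes in every library.

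The T-cell counterparts of these proteins were far more abundant per length. Cd247, the zeta chain of the T-cell receptor and a relative of Fcer1g, measured 47.4 CPM per kb in Veh and 51.1 in GSK, and its ratio to Fcer1g was 17.6 ± 9.31 in Veh and 18 ± 3.28 in GSK (SD, n = 3). Zap70 measured 68.0 and 68.8 CPM per kb, which was 244 ± 22.4 times the level of Syk in Veh and 205 ± 18.5 times in GSK. The ratio of Hcst to Tyrobp was 68.9, 24.7 and 135 in the Veh libraries and 13.7, 14.4 and 21.5 in the GSK libraries. It was higher in every Veh library, which restates the low Tyrobp counts there. Both genes were chosen on this contrast, and the ratio was not tested. The exon lengths are the union of all annotated exons and count isoforms that may not be made here, which lowers the values of long genes such as Syk.

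**Figure D3:**
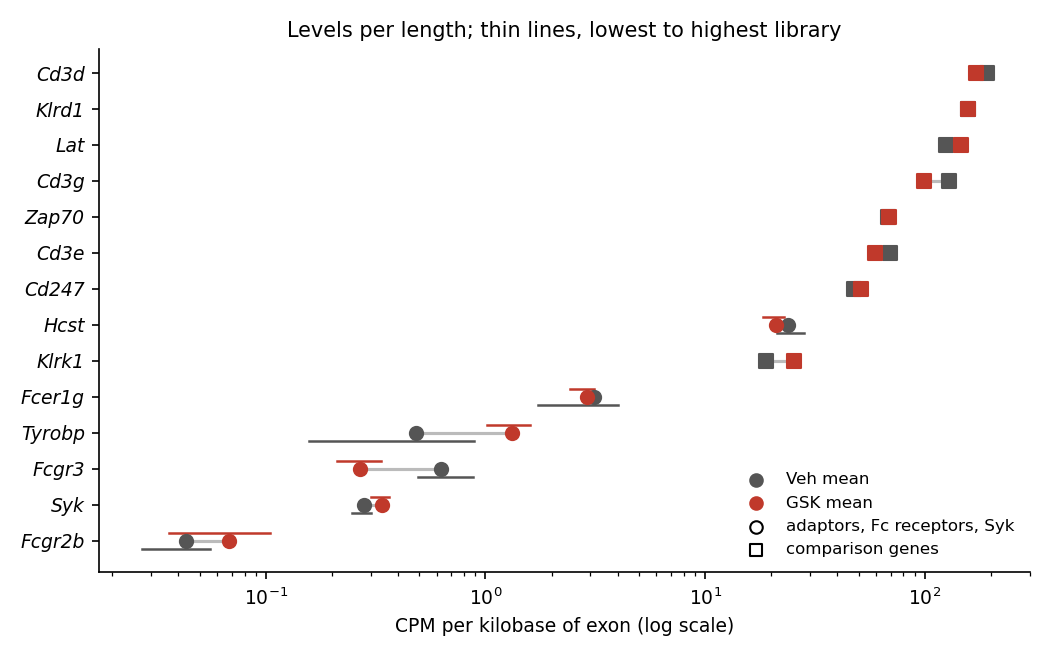
Mean level per kilobase of exon (x axis, log scale) in Veh (grey) and GSK (red), for the 6 adaptor, Fc receptor and kinase genes (circles, with thin lines from the lowest to the highest library) and 8 T-cell genes for scale (squares). Hcst sits beside Klrk1, at 23.8 and 21.0 against 18.9 and 25.4 CPM per kb, and the other 5 genes lie below every T-cell gene shown.

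The receptors that signal through each adaptor were described next, from lists that leave out the 6 genes. All lists here and below were chosen with earlier results of these data known. Their shares are therefore a description beside those of all tested genes. Of 21 receptors known to pair with Tyrobp, 12 were in the table and 5 were tested, of which 3 rose at an adjusted p under 0.05 and none fell (60.0% and 0%, beside 16.6% and 15.5% of all tested genes), with a median log2 fold change of 0.538 beside -0.00387 over all tested genes. Klrc2 (NKG2C), an activating receptor for the non-classical MHC molecule Qa-1, was counted with 69, 59 and 91 reads in Veh and 149, 181 and 157 in GSK. It rose from 3.90 ± 0.819 to 8.39 ± 0.692 CPM (SD, n = 3; log2 fold change 1.10 ± 0.17 SE, edgeR adjusted p = 0.00044). Its relative Klrc3 (NKG2E) had 154, 156 and 170 reads in Veh and 312, 339 and 310 in GSK, a log2 fold change of 0.95 ± 0.0982 (SE, edgeR adjusted p = 2.7e-05). Both stayed past the threshold in all 12 alternatives. Their transcripts share sequence, with 45.8% of the 31-base stretches of Klrc3 found in Klrc2 and 10.3% of those of Klrc2 in Klrc3. The inhibitory receptor gene Klrc1 holds 30.4% of the stretches of Klrc2 and 17.3% of those of Klrc3. Klrc1 itself rose from 32.8 ± 1.08 to 91.5 ± 4.57 CPM (edgeR adjusted p = 6.7e-09). A part of the reads of these 3 genes may be uncertain in origin, which was not measured. The rises of Klrc2 and Klrc3 may therefore not be independent.

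Cd200r4, a member of the CD200 receptor family that couples to Tyrobp, rose from 7.98 ± 1.13 to 11.6 ± 1.51 CPM (log2 fold change 0.54, edgeR adjusted p = 0.011), and the adjusted p ranged from 0.003 to 0.053 over the alternatives. Klrd1 (CD94), the partner chain of the NKG2 receptors, was the most abundant of the list at 203 ± 13.8 (Veh) and 203 ± 17.6 CPM (GSK) (log2 fold change 0.00, edgeR adjusted p = 0.99). The Tyrobp level beside these receptors stayed at or below 1.06 CPM in every library.

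Klrk1 (NKG2D), which can signal through Hcst, was the only receptor on the list for Hcst. It was counted with 2239, 2648 and 2727 reads in Veh and 3524, 3582 and 3475 in GSK, with no overlap, and rose from 136 ± 12.1 to 182 ± 2.18 CPM (SD, n = 3; log2 fold change 0.43 ± 0.0582 SE, edgeR adjusted p = 0.00021). It stayed past the threshold in all 12 alternatives, with adjusted p from 1.2e-09 to 0.0033. Per kilobase, the ratio of Klrk1 to Hcst was 0.603, 0.905 and 0.936 in Veh and 1.41, 1.10 and 1.16 in GSK, higher in every GSK library than in any Veh library. Which of the 2 genes was the more abundant depends on the exon lengths used, 7183 bases for Klrk1 and 722 for Hcst. The ratio contains Hcst, which was chosen on this contrast, and was not tested.

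Of 16 receptors that pair with Fcer1g, 13 were in the table, 10 of these stayed under 10 counts in every library, and 2 were tested. Klrb1f, an activating lectin-like receptor, fell from 5.62 ± 0.345 to 4.09 ± 0.292 CPM (log2 fold change -0.46, edgeR adjusted p = 0.042). This held in only 3 of the 12 alternatives, with an adjusted p of up to 0.12. Klrb1c (NK1.1) measured 2.07 ± 0.477 (Veh) and 3.03 ± 0.675 CPM (GSK) (edgeR adjusted p = 0.13).

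The other ITAM-bearing chains were those of the antigen receptors. Of 5 tested, 3 (60.0%) fell and none rose, beside 15.5% and 16.6% of all tested genes (median log2 fold change -0.231). Levels went down for Cd3g from 423 ± 16.4 to 325 ± 12.4 CPM (edgeR adjusted p = 6e-05), Cd3e from 284 ± 4.91 to 242 ± 9.89 CPM (0.0015) and Cd3d from 350 ± 12 to 312 ± 11.5 CPM (0.011, up to 0.063 over the alternatives). Cd247 measured 253 ± 9.32 (Veh) and 272 ± 9.84 CPM (GSK) (0.081). The levels of Fcer1g beside these chains are given per length above.

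The next list held the Src, Syk and Tec family kinases, of which Src kinases phosphorylate ITAMs, together with Csk. Of its 12 tested genes, 7 (58.3%), Csk among them, rose and none fell, beside 16.6% and 15.5% of all tested genes (median log2 fold change 0.167). Without Veh replicate 2 the count that rose was 4. Fyn rose from 275 ± 18.3 to 345 ± 18.2 CPM (log2 fold change 0.33, edgeR adjusted p = 0.00075) and Yes1 from 5.85 ± 0.716 to 9.60 ± 1.13 CPM (0.71, adjusted p = 0.0026). Csk, the kinase that restrains the Src family, also rose, from 301 ± 2.51 to 348 ± 5.99 CPM (0.21, adjusted p = 0.0011), as did Lck from 840 ± 5.14 to 916 ± 21.0 CPM (0.13, adjusted p = 0.011, up to 0.055 over the alternatives). Zap70, the relative of Syk, gave a log2 fold change of 0.02 (edgeR adjusted p = 0.80).

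Of 24 tested proteins downstream of Syk and Zap70, 6 rose (25.0%) and 5 fell (20.8%), beside 16.6% and 15.5% of all tested genes (median log2 fold change 0.0628). The count that fell was 3 with DESeq2, with the replicate block, and without Veh replicate 1, Veh replicate 2 or GSK replicate 1. Sh3bp2, an adaptor that binds Syk family kinases, rose from 51.1 ± 7.12 to 85.1 ± 2.09 CPM (log2 fold change 0.73, edgeR adjusted p = 9.1e-05), and the exchange factor Vav1 rose by 0.22 (adjusted p = 0.0019). Pik3r1, the regulatory subunit of the phosphatidylinositol 3-kinase that Hcst recruits, fell from 182 ± 6.53 to 130 ± 8.67 CPM (-0.48, adjusted p = 4.5e-05), and Malt1, which acts with Bcl10 in NF-κB activation, from 246 ± 6.92 to 186 ± 13.5 CPM (-0.40, adjusted p = 0.00017).

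Of 22 tested inhibitors of ITAM signalling, 1 rose (4.55%) and 4 fell (18.2%), the latter share being near the 15.5% of all tested genes (median log2 fold change -0.0747). The adaptor Dok2 rose from 189 ± 1.2 to 245 ± 17.8 CPM (log2 fold change 0.37, edgeR adjusted p = 0.00021). The ubiquitin ligase gene Cblb fell from 230 ± 5.86 to 172 ± 16.6 CPM (-0.42, adjusted p = 0.00039), Cd5 from 85.2 ± 8.47 to 60.3 ± 5.56 CPM (-0.50, adjusted p = 0.0011) and Sla2 from 74.7 ± 3.77 to 62.7 ± 3.85 CPM (-0.25, adjusted p = 0.0067).

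Genes of innate-like CD8+ T cells showed both directions, with 4 of 16 tested genes (25.0%) higher and 2 (12.5%) lower, beside 16.6% and 15.5% of all tested genes (median log2 fold change -0.0145). Id2 rose from 209 ± 9.29 to 311 ± 14.7 CPM (log2 fold change 0.57, edgeR adjusted p = 5.1e-06), the cytotoxic granule gene Nkg7 rose by 0.47 (adjusted p = 1e-05), Gzmk fell from 14.8 ± 1.77 to 8.22 ± 0.682 CPM (-0.85, adjusted p = 0.00027), and Ikzf2 (Helios) fell from 27.0 ± 2.21 to 16.6 ± 2.35 CPM (-0.71, adjusted p = 0.00037). Over the 8 lists, 22 of 87 tested genes (25.3%) were higher and 15 (17.2%) lower, beside 16.6% and 15.5% of all tested genes, with a median log2 fold change of 0.00115. Tyrobp, Hcst, Fcer1g and Syk also belong to the KEGG pathway of NK-cell cytotoxicity in the deposited annotation, in which 25 of 92 other tested genes (27.2%) were higher and 16 (17.4%) lower, with a median of 0.00703. Some of the named genes overlap other annotated genes, namely Fyn, Yes1, Lck, Sh3bp2, Dok2 and Cblb with 1 each.

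**Figure D4:**
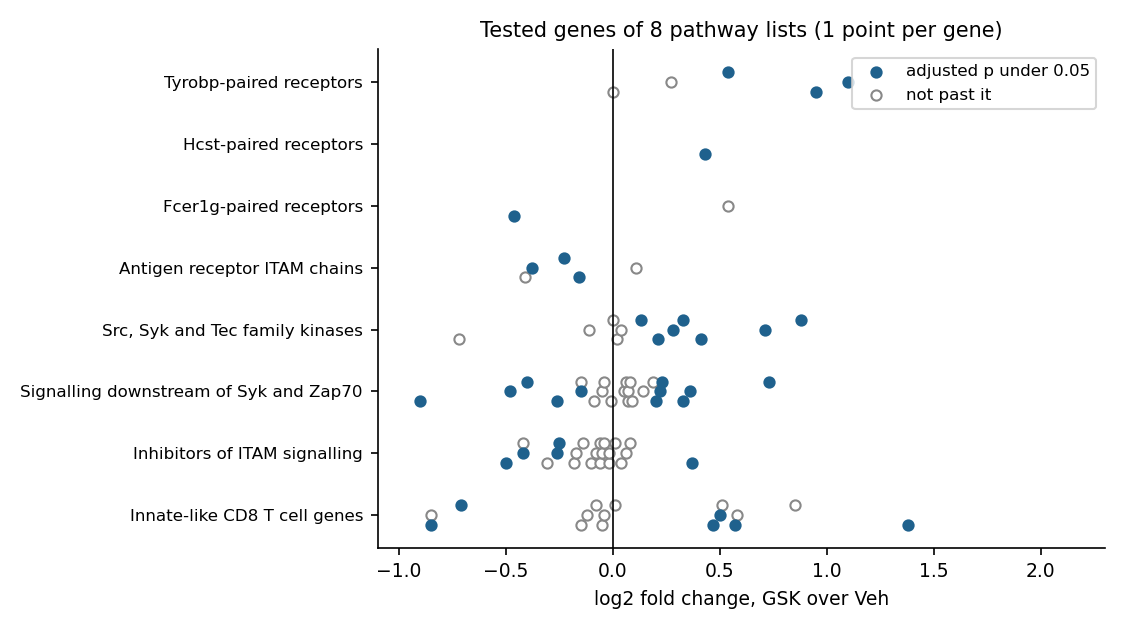
Log2 fold change of GSK over Veh (x axis) for the tested genes of 8 lists (rows), 1 point per gene, filled where the edgeR adjusted p was under 0.05; points are offset vertically only to separate them. Tested Tyrobp-paired receptors have 3 filled points to the right and none to the left, antigen receptor chains 3 to the left, kinases 7 to the right, and the downstream, inhibitor and innate-like lists points on both sides.

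Apart from Hcst, which T cells use with NKG2D, the adaptors and Fc receptors are typical of myeloid, NK or B cells. Markers of other cells were therefore summed in the same libraries. Of 15 myeloid markers, 12 were in the table, 8 stayed under 10 counts in every library, and the summed level was 10.7 to 17.0 (Veh) and 10.3 to 13.8 CPM (GSK), with 0 of 3 tested genes past the threshold in edgeR. The macrophage marker Adgre1 had 1, 1 and 0 reads in Veh and none in GSK. Lyz2 had 27, 14 and 2 reads in Veh and 2, 13 and 3 in GSK, and C1qa, C1qb and C1qc together 24, 7 and 3 and 0, 7 and 4. Cd68 made up most of the sum, at 8.87 ± 1.84 (Veh) and 9.33 ± 0.995 CPM (GSK). Itgam (CD11b) had 50, 39 and 48 reads in Veh and 30, 38 and 19 in GSK, lower in every GSK library as Fcgr3 was, with a log2 fold change of -0.70 (edgeR adjusted p = 0.073), and that of Lyz2 was -1.30 (edgeR adjusted p = 0.29). The part of Itgam in the Fcgr3 values was not tested. Both Lyz2 and the C1q genes were high in Veh replicate 1, where Fcer1g was at its lowest. This is 1 library with few reads of each, and the part of myeloid cells in the Fcer1g values was not tested.

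Of 7 dendritic cell markers, 4 were in the table, with sums of 3.27 to 4.84 (Veh) and 1.77 to 2.62 CPM (GSK), and among them Itgax (CD11c), which activated T cells can also express, fell from 3.39 ± 0.972 to 1.31 ± 0.144 CPM (log2 fold change -1.37, edgeR adjusted p = 0.0023). The other 3 were not lower in GSK, with Zbtb46 at 0.623 and 0.64 CPM, Flt3 at 0.0529 and 0.157 CPM and Clec9a at 0 and 0.0337 CPM in Veh and GSK. All 9 NK-cell markers were in the table, with sums of 12.8 to 16.5 (Veh) and 20.6 to 24.9 CPM (GSK). Of these, 5 stayed under 10 counts in every library. Among the 4 tested, 2 rose and none fell (50.0% and 0%, beside 16.6% and 15.5% of all tested genes). Klre1 rose by 0.50 (edgeR adjusted p = 0.0093) and Klri2 by 1.38 on the log2 scale (adjusted p = 0.00092). Klrb1c (0.54, adjusted p = 0.13) and Klra3 (0.04, adjusted p = 0.94) did not pass. Klre1 and Klri2 are also on the list of innate-like genes. The defining NK-cell receptor gene Ncr1 had 1 read in all 6 libraries together. The NK-marker sums were thus higher in GSK, as Tyrobp was, and Itgax was lower, as Fcgr3 was. Tyrobp and Fcgr3 were chosen on this contrast, and the part of these markers in their values was not tested. B-cell markers, which accompany Fcgr2b and Syk in B cells, summed to 5.94 to 8.0 (Veh) and 5.84 to 6.98 CPM (GSK). Mast cell and basophil markers, of which 4 of 7 were in the table, summed to 0.946 to 1.63 and 0.367 to 1.11 CPM. CD4 T-cell markers summed to 43.1 to 52.9 (Veh) and 39.2 to 44.8 CPM (GSK). Zbtb7b made up most of that sum, at 42.1 ± 6.31 (Veh) and 37.6 ± 3.48 CPM (GSK). Cd4 itself measured 1.19 ± 0.533 and 0.967 ± 0.663 CPM, and Foxp3 3.26 ± 1.38 and 3.55 ± 1.25 CPM. The single gamma delta T-cell marker in the table, Sox13, measured 0.966 to 1.21 (Veh) and 0.911 to 1.47 CPM (GSK). In bulk RNA, a smaller number of cells of a type and less RNA per cell cannot be told apart.

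The genes around both loci were compared with the members. At the Tyrobp-Hcst locus, Alkbh6 (log2 fold change 0.38, edgeR adjusted p = 0.019) and Nfkbid (0.31, adjusted p = 0.011) were higher in GSK, Arhgap33 was lower (-0.31, adjusted p = 0.0066), and Wdr62 (-0.03, adjusted p = 0.69), Sdhaf1 (0.28, adjusted p = 0.10) and Aplp1 (-0.03, adjusted p = 0.92) did not pass the test. Nfkbid, the nearest of them to Hcst and an inhibitor-like regulator of NF-κB, measured 27.9 ± 3.09 (Veh) and 34.5 ± 0.096 CPM (GSK), and its adjusted p reached 0.057 with 1 library left out, as that of Alkbh6 reached 0.077. None of these differences reached 1.5-fold.

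Of the tested genes described around or between Fcgr2b and Fcer1g, a span of 273792 bases, Atf6 was higher (0.38, edgeR adjusted p = 7.1e-05) and Ppox lower (-0.28, adjusted p = 0.021, up to 0.09 over the alternatives). Dusp12, Gm39701, Cfap126, Sdhc, Tomm40l, Apoa2 and B4galt3 did not pass, with log2 fold changes from -0.30 to 0.33 and adjusted p from 0.15 to 0.90. Of these, Tomm40l and Apoa2 overlap each other, and Wdr62, Atf6 and Sdhc overlap other annotated genes.

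The genes with the most similar pattern were sought among the tested genes with a mean of at least 5 CPM, by the root mean square difference of mean-centred log2 CPM over the 6 libraries. For Tyrobp these were Ifi204 (0.316), Lonrf3 (0.321) and Tlr7 (0.326), whose mean levels were 17.4, 3.99 and 7.52 CPM in Veh and 48.3, 11.5 and 15.5 CPM in GSK. For Hcst they were Ptpn21 (0.0495), Cfl2 (0.0498) and Megf11 (0.0596), and for Fcer1g Zfp992 (0.131), Rgs16 (0.159) and Cd244a (0.179). The 6 points share libraries and depth, and the likeness is a description. The adaptors were chosen on the contrast of GSK with Veh, which is part of each pattern. That the genes nearest Tyrobp were higher in GSK is therefore no further result. The log2 CPM used a prior count of 2, which weighs more on the few reads of Tyrobp than on the candidates.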

How the data were processed

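The authors enriched polyadenylated RNA, prepared stranded libraries and counted reads per gene, and the deposited values are whole counts without normalization. The submitters' processing notes list Trimmomatic, HISAT2 (2.1.0), HTSeq (0.11.2), Cufflinks (2.2.1), DESeq2 (1.22.2) and GRCm38. The annotation release and the strand setting of the counting are not given in the sources used here.

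Counts were compared in R (4.3.3) with edgeR (4.0.16): TMM scaling, the filterByExpr filter (minimum count 10), the robust quasi-likelihood test with p-values adjusted by Benjamini-Hochberg across the 11698 genes that passed. Alternatives were DESeq2 (1.42.0), RLE and upper quartile scaling, no filter, a mean CPM of at least 1, the replicate block, calls without the fold limit, and each library left out in turn. The tests were checked on simulated data. An exact permutation test of 3 against 3 libraries reaches 0.10 at the lowest, and no gene was tested outside the edgeR or DESeq2 models. Within-group pairs of libraries differed by more than sampling noise (chi-square per degree of freedom 3.95 to 9.02). The labels do not say whether same-numbered cultures share a mouse.

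The 6 genes and all gene lists were chosen with earlier results of these data known, and the KEGG list was added after the files were seen. Named genes were the 6 genes, in each list up to 4 genes past the adjusted p with the smallest p and otherwise the most abundant tested gene, the 3 nearest tested genes on each side of both loci and those between (with 1 gene not reported here), the 3 most similar genes of each adaptor, and called markers. Other genes, such as Klrc1, Klrb1c, Cd247, Fcgr4, Klre1, Klra3, Zbtb7b, Cd4, Foxp3 and the myeloid markers, were named after their values were seen. Positions came from a RefSeq GRCm38.p6 table matched by Entrez identifier (16197 of 16281 genes), and exon lengths and transcripts from GENCODE M21. Intervals on summed counts cover counting error only.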

Additional observations from a re-analysis of the deposited data

How the results depend on the processing

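With the adjusted p alone, 1941 genes were higher and 1819 lower in GSK, against 260 and 479 with the fold limit. The log2 fold change of Tyrobp was 1.01 to 2.19 with 1 library left out, the highest value being without Veh replicate 2. The other settings left the counts of called genes within 1.5 times, and of the genes of the 8 lists 18 to 22 were higher and 11 to 17 lower. Within single lists, counts moved by more than 1.5 times for the kinases (7 to 4 without Veh replicate 2), the downstream proteins (5 to 3 lower in 5 alternatives) and the Fcer1g-paired receptors (1 to 0 in 9). Tyrobp was called in 3 and Fcgr3 in 4 of 11 alternatives, and both had too few reads to be tested at a mean CPM of at least 1.

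Same-numbered libraries deviated from their group means with correlations of -0.0515, -0.0814 and 0.164 for replicates 1, 2 and 3, so the numbers were not taken to pair the libraries. With the replicate block, 253 genes were called higher and 447 lower, and 21 and 14 genes of the lists were past the adjusted p. Tyrobp, Fcgr3 and Fcgr2b rest on 69, 88 and 37 reads in all, which limits every value given for them.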
